A study of Mus musculus with 48 samples.

Results

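The genes described here are a fixed list of 37 genes of hepatic stellate cells (Ito cells) and of the extracellular matrix, of which 35 were measured among the 19505 genes of the arrays. They were chosen by name, as markers of stellate cells, contractile proteins, collagens, collagen-processing enzymes, proteoglycans and other matrix proteins, to ask whether their RNA followed the addition of Ito cells or the macrophage culture itself. The list and the comparisons were chosen with earlier results of these data known. Loxl2 and Fbn1 were not analysed here. Ctgf is listed as Ccn2 in the current annotation. Of the 35 genes, 31 stood above the background of their own array, the median of its negative control probe sets, on at least 1 of the 48 arrays, and Lrat, Col5a1, Col14a1 and Fbln1 did so on none.

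Stellate cells lie between the sinusoidal endothelium and the hepatocytes and store vitamin A as retinyl esters, which the enzyme Lrat makes. When they are activated, as in liver injury or on culture plastic, they take on a contractile apparatus marked by smooth muscle actin, Acta2, and secrete fibrillar collagens, proteoglycans and crosslinking enzymes. Macrophages are not regarded as the main makers of fibrillar collagen, but they are known to secrete fibronectin and thrombospondin and carry the intermediate filament vimentin.

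The study cultured macrophages of both origins from male BALB/c mice. Kupffer cells, which are resident liver macrophages, came from magnetic sorting of liver by F4/80, and monocytes from sorting of the blood of the same animals by CD115. Every group first spent 1 day in MCSF (macrophage colony-stimulating factor). The cells then spent 1 or 3 days with Ito cells, with CD146 cells (which the design calls sinusoidal endotheliocytes), or with hepatocyte growth factor (HGF), or stayed in MCSF as the control, for 2 or 4 days of culture in all. These 16 groups of 3 arrays each are named below by macrophage, addition and the day of the addition period. The labels call the 3 samples of a group biological replicates. Whether added cells and macrophages shared a well, whether added cells were taken off before lysis, and whether MCSF was kept with an addition are not stated. In such bulk samples fewer cells of a type and less RNA per cell cannot be told apart.

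Levels are log2 array values, on which the negative control medians of single arrays ran near 5, and they do not serve to compare one gene with another. Differences are log2 differences between group means after subtraction of the median difference of all genes in that comparison, with the standard error (SE) of limma, since whole arrays shifted between groups. This median was -0.55 for HGF in monocytic macrophages at 1 day, 0.51 and 0.44 for Kupffer and monocytic Ito cultures over time, between -0.30 and -0.17 for the other Ito or HGF comparisons at 1 day, and 0.15, 0.13 and 0.11 for both controls over time and for Ito cells on Kupffer cells at 3 days. It stayed within 0.08 of 0 elsewhere. Rises and falls are named as such where the limma adjusted p was under 0.05, in a test run before that subtraction. Where every array of the lower group was under its negative control median, the ratio is given as a lower bound against that background. Such a bound is taken before subtraction of the all-gene median, so a shift of whole arrays in the same direction makes it larger. It uses the mean of the higher group, of which single arrays could be under background, and is given only where this mean exceeded the background.

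Of the 6 stellate cell markers in the set, Lrat, Des and Reln were under background on every array of the cultures that had received Ito cells, and Pdgfrb, Thy1 and Olfml3 were above it on some. Lrat, which makes retinyl esters, read 4.06, 4.30 and 4.16 in Kupffer cells with Ito cells at 1 day and 4.20, 4.41 and 3.73 at 3 days, all under background, against 4.12, 3.76 and 3.55 in the Kupffer control at 3 days. Desmin, Des, the intermediate filament protein that marks rodent stellate cells, was under background on all 12 arrays with Ito cells. Reln, the secreted glycoprotein reelin, was above background on 1 of 48 arrays, a Kupffer control of 1 day. Pdgfrb, the platelet-derived growth factor receptor of stellate cells and pericytes, read 5.57, 5.26 and 5.86 with Ito cells at 3 days, 5.34, 6.04 and 5.88 in the control and 7.12, 5.53 and 6.27 with HGF, so the groups with and without Ito cells overlapped. Thy1, a surface glycoprotein of activated fibroblasts and T cells, was above background on all 3 arrays of Kupffer cells with Ito cells at 1 day, at 6.74, 7.18 and 7.04, which was its highest group. Olfml3, a secreted olfactomedin-like protein, was above background on all 3 arrays of monocytic macrophages with Ito cells at 3 days, at 9.57, 9.06 and 9.47, and reached 13.25, 13.40 and 13.75 in the Kupffer control of that time, which had no Ito cells.

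Stellate cell markers outside the gene set were mostly at background as well. Of 17 measured, 10 (Hand2, Lhx2, Ngfr, Gfap, Rgs5, Colec11, Pth1r, Vipr1, Angptl6 and Tcf21) were under background on all 48 arrays. In the 4 groups with Ito cells the mean of this list was 3.89 ± 0.09 (SD, n = 3) in Kupffer cells at 1 day and 4.24 ± 0.08 at 3 days, and 3.88 ± 0.03 and 4.26 ± 0.18 in monocytic macrophages. In the other groups it ran from 3.61 to 4.29. The list had 1 gene above background on all arrays in each Ito group, Nt5e in 3 of them and Rspo3 in Kupffer cells at 3 days. Neither was particular to the Ito cultures. Nt5e was also above it on all arrays of every other monocytic group of 1 day and of monocytic macrophages with CD146 cells at 3 days. The same held for Nt5e in Kupffer cells with CD146 cells or HGF at 1 day, and for Rspo3 in Kupffer cells with CD146 cells at 3 days. The macrophage list, by contrast, stood between 13.92 and 15.95 in every group. In Kupffer cells at 3 days it averaged 15.95 ± 0.19 in the control and 14.28 ± 0.09 with Ito cells. With CD146 cells it averaged 13.92 ± 0.02 and with HGF 13.92 ± 0.20. Monocytic cultures of 3 days ran from 15.12 to 15.63. The part of this Kupffer difference in the results below was not tested.

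**Figure D1:**
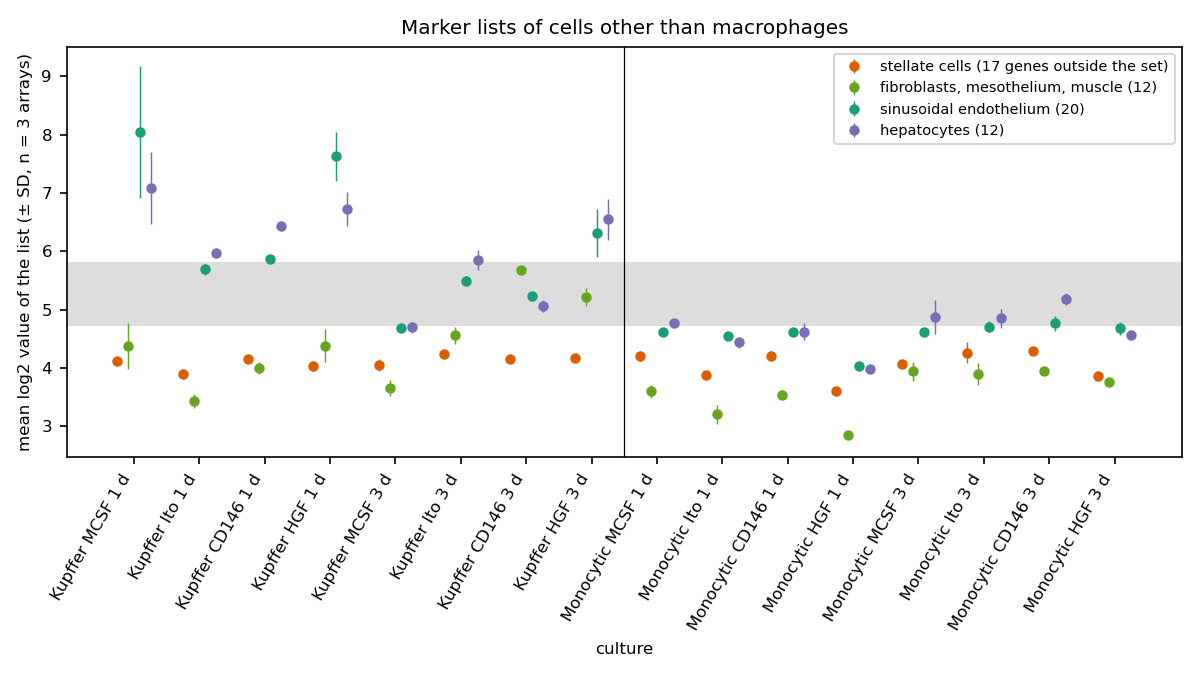
Mean log2 level (with SD over 3 arrays) of marker lists for stellate cells, sinusoidal endothelial cells, hepatocytes and mesothelium or fibroblasts in the 16 cultures; the grey band is the range of the negative control medians. The stellate cell list lies under the band in every culture, and the endothelial list is highest in the Kupffer control of 1 day, at 8.05.

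Markers of other liver cells changed between the Kupffer groups, and their part in the results below was not tested. The 20 sinusoidal endothelial markers averaged 8.05 ± 1.13 in the Kupffer control at 1 day (9.24, 7.93 and 6.99 on its arrays), with 13 of them above background on all 3 arrays. They averaged 5.69 ± 0.10 with Ito cells, 5.86 ± 0.03 with CD146 cells and 7.63 ± 0.42 with HGF at that time. At 3 days the list averaged 4.69 ± 0.01 in the control, 5.50 ± 0.07 with Ito cells, 5.24 ± 0.06 with CD146 cells and 6.31 ± 0.42 with HGF. Hepatocyte markers averaged 7.09 ± 0.61 in the control at 1 day and 4.70 ± 0.10 at 3 days. The list of portal fibroblast, mesothelium and smooth muscle genes averaged 3.66 ± 0.14 in the Kupffer control at 3 days, 4.56 ± 0.14 with Ito cells, 5.68 ± 0.06 with CD146 cells and 5.22 ± 0.16 with HGF. Its mesothelial members Upk3b, Msln and Upk1b were above background on all arrays of Kupffer cells with CD146 cells and HGF at 3 days. Upk1b was also above it on all arrays of the Kupffer control and HGF cultures of 1 day. Gpm6a, on the same list, was so in those groups, in every Kupffer group of 3 days, and in the monocytic control and Ito cultures of 3 days. Cd34, also on this list, was above background on all arrays of every Kupffer group but the MCSF control of 3 days. Among monocytic groups Cd34 was so only in the Ito cultures of 3 days. The members Entpd2, Gli1, Wt1, Pi16, Dpt and Myocd were above background on no array of the series. In monocytic cultures 0 to 2 of these 12 genes were above background on all arrays of a group.

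**Figure D2:**
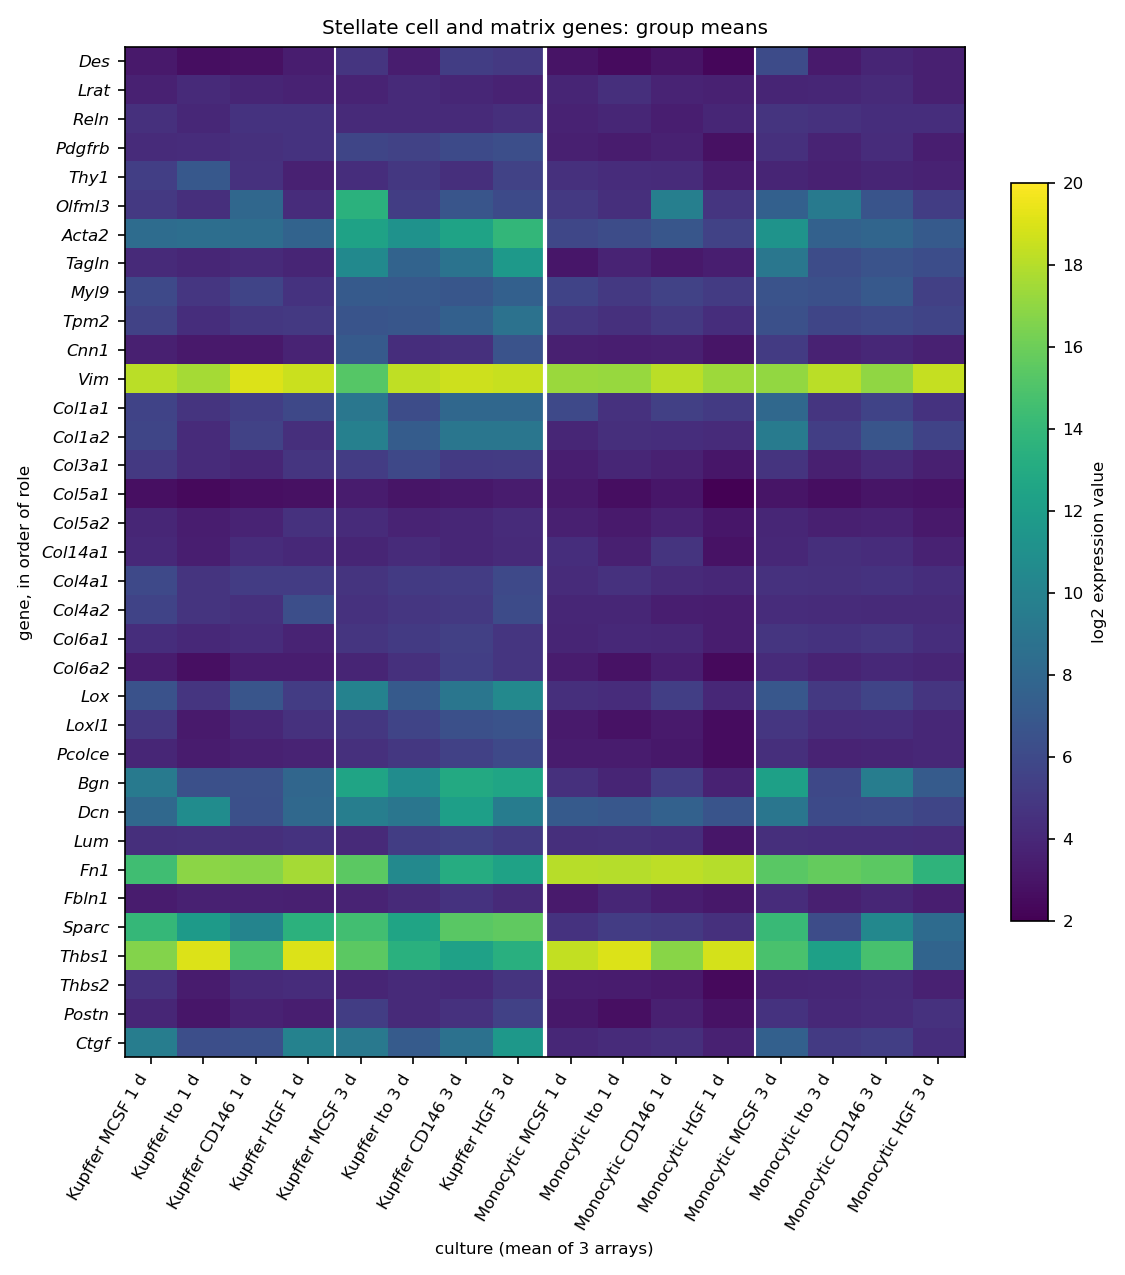
Group means of the 35 genes (log2, colour scale from 2 to 20) in the 16 cultures, with genes ordered by role. Colours are to be read along a gene and not between genes; Sparc, for one, goes from its lowest mean, 4.52 in monocytic macrophages with HGF at 1 day, to 15.59 in Kupffer cells with HGF at 3 days.

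The 4 genes below rose with time in monocytic macrophages kept in MCSF alone, and all but Sparc did so in Kupffer cells too, as the next paragraphs show. For them the 250 bases before each transcription start are given so that their promoters can be set side by side. They are Acta2 (chr19:34255374-34255623, minus strand), Bgn (chrX:73483351-73483600, plus strand), Col1a2 (chr6:4505368-4505617, plus strand) and Sparc (chr11:55420081-55420330, minus strand), from RefSeq on GRCm38.p6, read 5′ to 3′. Capitals mark matches, on either strand, to any of 6 motifs searched.
Acta2: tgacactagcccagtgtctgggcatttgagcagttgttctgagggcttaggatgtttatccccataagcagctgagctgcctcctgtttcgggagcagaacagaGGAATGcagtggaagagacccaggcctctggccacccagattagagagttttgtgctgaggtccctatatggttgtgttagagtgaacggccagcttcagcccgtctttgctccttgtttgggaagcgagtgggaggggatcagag
Bgn: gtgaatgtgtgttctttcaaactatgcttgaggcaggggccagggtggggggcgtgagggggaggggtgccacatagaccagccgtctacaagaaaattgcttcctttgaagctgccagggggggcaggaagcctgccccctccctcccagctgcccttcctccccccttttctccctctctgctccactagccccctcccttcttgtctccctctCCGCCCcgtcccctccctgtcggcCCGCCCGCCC
Col1a2: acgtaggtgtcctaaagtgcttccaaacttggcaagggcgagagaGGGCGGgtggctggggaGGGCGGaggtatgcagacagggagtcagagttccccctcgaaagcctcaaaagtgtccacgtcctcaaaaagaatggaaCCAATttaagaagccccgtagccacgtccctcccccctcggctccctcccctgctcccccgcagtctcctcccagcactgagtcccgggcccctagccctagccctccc
Sparc: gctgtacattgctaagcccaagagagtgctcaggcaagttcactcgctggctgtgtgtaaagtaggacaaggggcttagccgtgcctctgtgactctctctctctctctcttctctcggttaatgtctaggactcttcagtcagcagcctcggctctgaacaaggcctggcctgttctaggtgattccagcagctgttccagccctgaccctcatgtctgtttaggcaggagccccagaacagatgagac
The match in Acta2 was to CATTCC, those in Bgn were 3 matches to GGGCGG, 2 of which overlap by 2 bases, and those in Col1a2 were 2 to GGGCGG and 1 to CCAAT. Sparc had no match in this window. The windows shared no motif across all 4 genes. Of the 35 genes, 22 had promoter entries, with 25 windows. GGGCGG stood in 14 of these 25 windows and in 32.7% of the 32851 windows of all genes, CCAAT in 7 and 33.8%, CATTCC in 5 and 12.6%, and TATAAA in 4 and 12.4%. TGANTCA stood in 1 window, that of Col6a1, and in 6.75% of all. The CArG box, known as the binding sequence of serum response factor, was searched only in its strict form: CC, then 6 bases of A or T, then GG. That form stood in 1 window, that of the myosin light chain gene Myl9, and in 1.47% of all. Stretches that differ from it by 1 base, such as ccctatatgg in the Acta2 window, were not counted or marked. A match is a stretch of letters and not a measured binding site.

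The comparison of the MCSF controls over time asked what the genes did without any added cell. In monocytic macrophages, 23 of the 35 genes rose from 1 to 3 days and 2 fell, where 19.5% of all genes rose and 9.82% fell. The median difference of the 35 genes was 1.00, against 0.13 over all genes, both before subtraction. Of the 23 that rose, 14 were above background in at least 1 of the groups. All 6 contractile genes but Vim rose (5 of 6), as did 3 of 6 fibrillar collagens, 3 of 3 collagen-processing genes and 3 of 5 matricellular genes, and 2 of 4 basement membrane and beaded-filament collagens. These counts include Col3a1, Loxl1, Pcolce, Postn, Col6a1 and Col6a2, which were under background on all arrays of both groups. The small proteoglycans Bgn and Dcn rose as well, and so did the stellate cell markers Des, Olfml3, Reln and Pdgfrb. Of these, Reln and Pdgfrb were under background on all arrays of both groups. With quantile normalization the split was 22 higher and 2 lower (all genes 2833 and 2685), and after median centring 18 and 5 (all genes 2109 and 4024).

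Sparc, a collagen-binding matricellular protein, read 4.41, 5.22 and 4.33 in the monocytic control at 1 day and 14.72, 15.02 and 12.86 at 3 days. The groups lay far apart, and the rise was at least 425-fold (limma adjusted p = 2.11e-18). Bgn, the small leucine-rich proteoglycan biglycan, read 4.74, 4.82 and 3.85 and then 12.89, 12.97 and 10.81, a rise of at least 108-fold (adjusted p = 1.26e-14). Col1a2, a chain of collagen I, read 4.11, 3.71 and 4.02 and then 9.52, 10.27 and 8.63, at least 16.1-fold higher (adjusted p = 2.58e-15). Each of these genes went from background on every array to clearly above it. Tagln, the actin-binding protein transgelin, read 2.80, 3.28 and 3.28 and then 9.63, 9.60 and 8.15, at least 12.6-fold higher (adjusted p = 3.19e-15). Without replicate 3 of the control at 3 days the bounds were 675-fold for Sparc and 176-fold for Bgn. Acta2, the actin of the contractile apparatus, was above background on arrays of both groups, at 6.21, 5.61 and 5.64 and then 11.67, 11.56 and 10.59, and rose by 5.32 ± 0.35.

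The other monocytic rises were smaller. The matricellular growth factor-binding protein Ctgf rose at least 4.07-fold, Lox at least 2.63-fold, Tpm2 (a tropomyosin) at least 1.93-fold and Des at least 1.59-fold. Col1a1 rose by 1.98 ± 0.42, Olfml3 by 2.39 ± 0.35, and Dcn by 1.82 ± 0.48. The Dcn groups overlapped, and its difference was 1.13 without replicate 2 of the control at 3 days, which did not pass (adjusted p = 0.0527), and 2.88 without replicate 3. Reln, Pdgfrb, Col3a1, Col6a1, Col6a2, Loxl1, Pcolce, Fbln1 and Postn passed as rises but were under background on all arrays of both groups. The falls were of genes that macrophages are known to secrete. Thbs1, the adhesion glycoprotein thrombospondin, read 18.34, 18.52 and 18.28 at 1 day and 16.22, 16.12 and 12.14 at 3 days and fell by 3.68 ± 0.72 (adjusted p = 0.000176), or fell by 2.34 without replicate 3 at 3 days. Fn1, fibronectin, read 18.11, 18.10 and 18.00 and then 15.05, 15.39 and 15.76, with no overlap, and fell by 2.80 ± 0.79 (adjusted p = 0.00877).

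In the Kupffer control, 15 of the 35 genes rose from 1 to 3 days and 3 fell, where 21.5% of all genes rose and 10.2% fell. The median difference was 0.53, against 0.15 over all genes. Again 5 of the 6 contractile genes rose, together with 3 of 6 fibrillar collagens, 3 of 6 stellate cell markers and 2 of 3 small proteoglycans. Of the 15 genes that rose, 14 were above background in at least 1 of the groups. At 3 days Olfml3 alone of the stellate cell markers was above it on all 3 arrays, with Pdgfrb on 2 and Des on 1. Col1a1 and Col1a2 were the only fibrillar collagens above it at that time. Quantile normalization gave 14 higher and 4 lower (3072 and 2930 of all genes), and median centring 15 and 5 (3844 and 2206). In the same comparison 18 of 20 sinusoidal endothelial markers and 9 of 12 hepatocyte markers fell.

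Olfml3 read 5.22, 4.86 and 4.82 in the Kupffer control at 1 day and 13.25, 13.40 and 13.75 at 3 days. It rose by 8.35 ± 0.35 (adjusted p = 4.6e-22) and had its highest group mean of the series there. Tagln read 4.64, 3.92 and 3.90 and then 9.48, 10.69 and 11.40, at least 40.1-fold higher (adjusted p = 2.44e-16). Acta2 read 8.36, 8.98 and 7.74 and then 12.09, 12.61 and 12.51, a rise of 3.89 ± 0.35 (adjusted p = 3.52e-12). None of these groups overlapped, and the rise of Acta2 was also seen in the monocytic control. Col1a2 read 6.21, 5.87 and 5.26 and then 9.40, 10.10 and 9.94, a rise of 3.88 ± 0.36 (adjusted p = 9.26e-12). Of the rest, Cnn1, the actin-binding calponin, rose at least 3.77-fold, Col1a1 by 3.42 ± 0.42, Lox by 3.29 ± 0.33 and Bgn by 3.08 ± 0.54. Pdgfrb rose at least 1.47-fold by its group means, with 2 of 3 arrays at 3 days above background.

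Sparc, by contrast, was high in the Kupffer control at both times, with 15.62, 14.03 and 12.24 at 1 day and 13.96, 14.96 and 14.72 at 3 days, and did not pass (adjusted p = 0.395). The genes that fell were Vim, Col4a1 and Thy1. Vim read 17.93, 18.48 and 17.97 and then 15.71, 15.05 and 14.92 and fell by 3.05 ± 0.27 (adjusted p = 2.79e-11). Col4a1, a basement membrane collagen, read 7.24, 5.14 and 5.46 and then 4.82, 4.67 and 4.71, at least 1.44-fold lower at 3 days (adjusted p = 0.00391). Its value of 5.14 at 1 day was under the background of that array, 5.22. Without replicate 1 of the control at 1 day, which had the highest endothelial markers and a Col4a1 level apart from the others, the fall of Col4a1 did not pass (adjusted p = 0.158). Thy1 read 4.77, 4.86 and 6.30 and then 4.25, 4.54 and 4.19 and passed as a fall (adjusted p = 0.0258), but it was under background on all arrays at 3 days and above it on 1 array at 1 day, so no fold is given. It did not pass without that array, replicate 3 (adjusted p = 0.309), nor without replicate 1 or 3 at 3 days (adjusted p = 0.0642 and 0.0818).

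**Figure D3:**
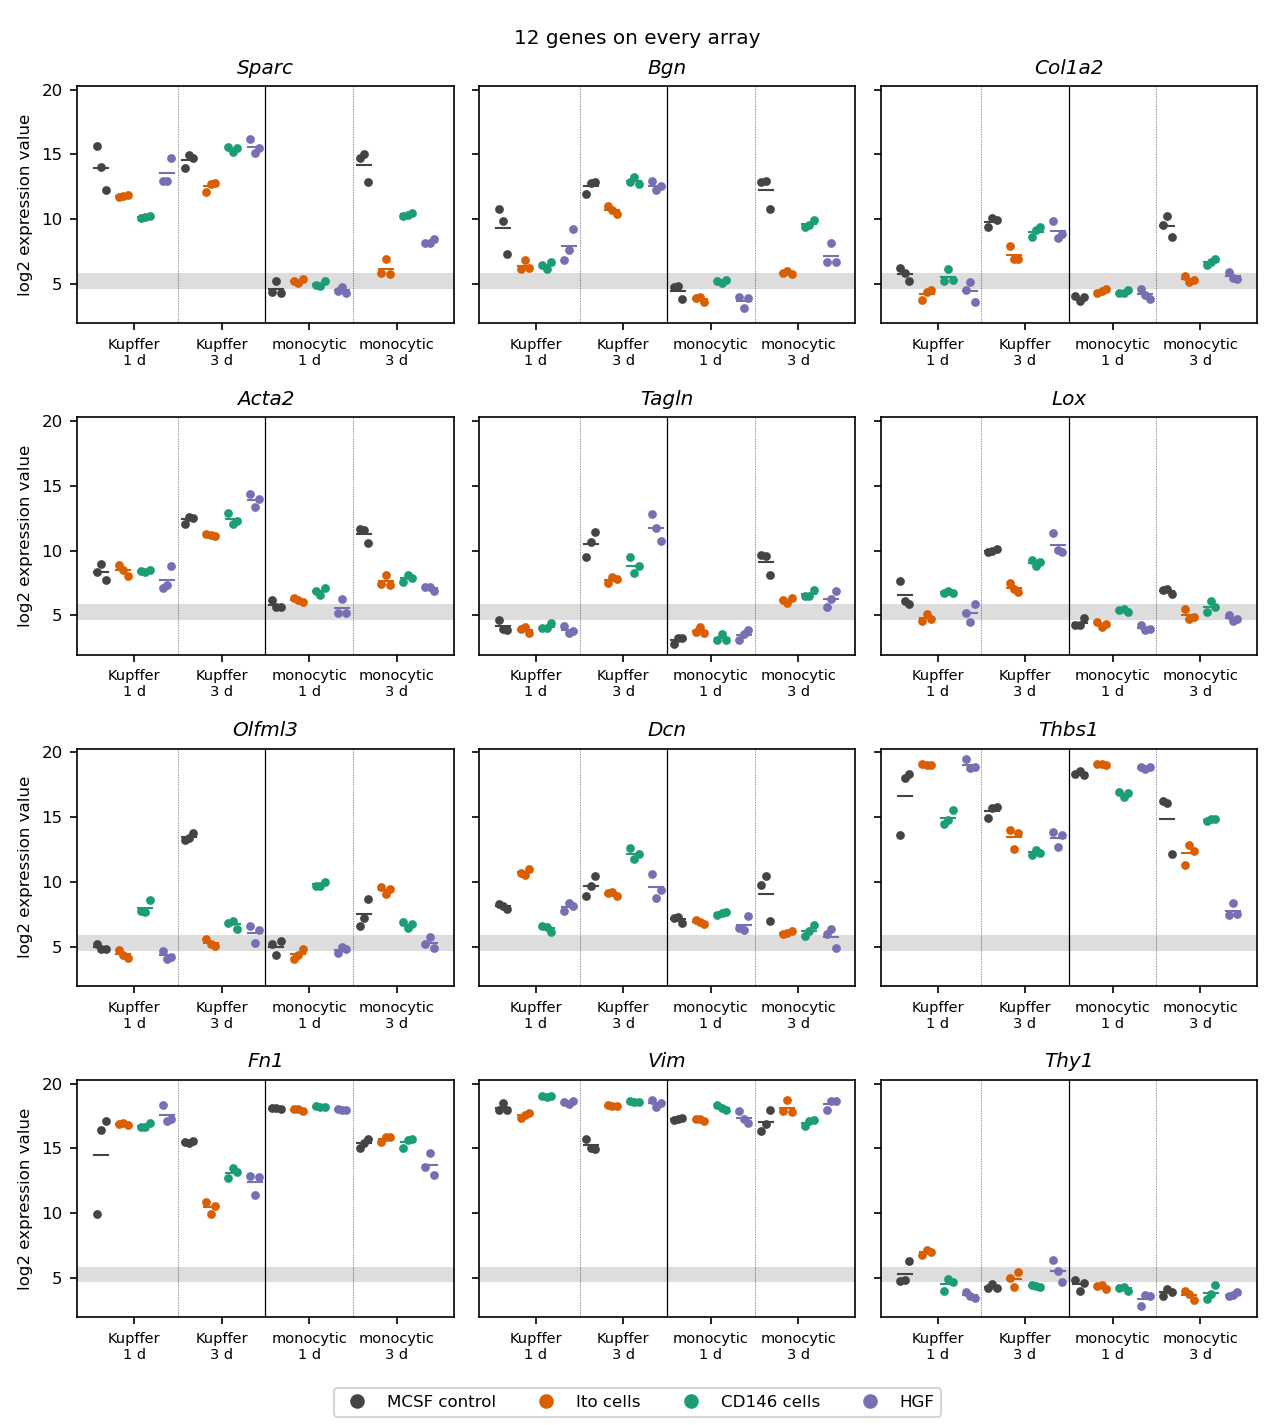
Log2 values of 12 of the genes on each of the 48 arrays, with points for the 3 replicates of a culture, lines for their means and a grey band for the negative control medians. Sparc and Bgn lie at background in monocytic macrophages at 1 day and well above it in their MCSF control at 3 days, and Olfml3 is highest in the Kupffer control at 3 days.

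The controls of both cell types were compared with each other to ask how far the genes depended on the origin of the macrophages. Markers of Kupffer cells, 11 genes, averaged 8.22 ± 0.56 (SD) in the Kupffer control of 1 day and 6.29 ± 0.01 in the monocytic one. In the controls of 3 days they averaged 8.22 ± 0.10 and 8.94 ± 0.33, so this list was then not higher in Kupffer cells. Clec4f and C6, both on it, were under background on all 48 arrays. At 1 day 13 of the 35 genes were higher in Kupffer cells and 2 lower, where 9.73% and 11.6% of all genes were. The counts were 14 higher and 1 lower (all genes 2012 and 2305) with quantile normalization and 11 and 3 (all genes 1196 and 4849) with median centring. Sparc was at least 361-fold higher in Kupffer cells (adjusted p = 4.48e-18), Bgn at least 14.4-fold (adjusted p = 8.71e-09), and Acta2 higher by 2.61 ± 0.35 (adjusted p = 9.2e-07). The Kupffer control of 1 day was the group with the highest endothelial markers. Ctgf read 11.06, 9.71 and 8.04 in Kupffer cells and 4.08, 3.84 and 4.02 in monocytic macrophages, at least 17.6-fold higher (adjusted p = 1.31e-09). The Kupffer control arrays were spread in these matrix genes. Without replicate 1 the bounds were 203-fold for Sparc, 8.7-fold for Bgn and 10.6-fold for Ctgf, and without replicate 3 656-fold, 28.7-fold and 30.3-fold. Fn1 read 9.92, 16.42 and 17.11 in Kupffer cells, lower by 3.51 ± 0.79 than in the monocytic control (adjusted p = 0.000991), and without replicate 1 of the Kupffer control, the lowest by far, the difference was -1.22 (adjusted p = 0.0132). Col5a1, the other gene that was lower, was under background on all arrays of both groups.

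At 3 days 7 genes were higher in the Kupffer control and 2 lower, where 6.38% and 5.7% of all genes were. Sparc and Bgn no longer passed, with levels of 13.96, 14.96 and 14.72 against 14.72, 15.02 and 12.86 for Sparc. Olfml3 read 6.62, 7.23 and 8.67 in the monocytic control and was higher in Kupffer cells by 5.99 ± 0.35 (adjusted p = 7.92e-17). Lox, the lysyl oxidase that crosslinks collagen and elastin, read 9.92, 9.94 and 10.08 in Kupffer cells and 6.93, 7.03 and 6.64 in monocytic macrophages, a difference of 3.14 ± 0.33 (adjusted p = 1.76e-09). The groups of both genes stood apart. Cnn1 read 6.33, 6.96 and 8.04 and 4.91, 5.66 and 4.72, a difference of 2.04 ± 0.37 (adjusted p = 8.52e-05). Ctgf read 7.39, 9.77 and 10.71 and 7.82, 8.00 and 6.65, with overlapping groups and a difference of 1.82 ± 0.58 (adjusted p = 0.0333). Without replicate 3 of the monocytic control at 3 days, 6 genes passed in place of 9, and Ctgf (adjusted p = 0.181), Tagln (adjusted p = 0.174) and Acta2 (adjusted p = 0.205) did not. Ctgf also did not pass without replicate 2 or 3 of the Kupffer control (adjusted p = 0.148 and 0.38), and without its replicate 1 had a difference of 2.77. Lower in Kupffer cells were Vim, at 16.33, 16.88 and 17.97 in the monocytic control, by 1.81 ± 0.27 (adjusted p = 2.1e-06), and Des, at 4.31, 4.53 and 5.44 against 6.48, 6.48 and 5.45, by 1.35 ± 0.36 (adjusted p = 0.00582).

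Addition of Ito cells to Kupffer cells for 1 day left 4 of the 35 genes higher than in the MCSF control and 13 lower, where 5.47% of all genes were higher and 18% lower. The median difference was -0.57, against -0.24 over all genes. The genes that were higher were Dcn, Thbs1, Fn1 and Thy1, and the largest falls were of Ctgf, Bgn, Sparc and Lox. With quantile normalization the split was 5 higher and 9 lower (all genes 1611 and 1558), and after median centring 6 and 8 (all genes 3064 and 1010). The sinusoidal endothelial list fell in the same comparison in 19 of 20 genes, and this control is the group with 1 array apart from the others, so both are given beside the genes.

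Dcn, the proteoglycan decorin, which binds collagen fibrils, read 10.65, 10.57 and 11.02 with Ito cells and 8.27, 8.13 and 7.93 in the control, without overlap, and was higher by 2.88 ± 0.48 (adjusted p = 9.32e-05). Thy1 read 6.74, 7.18 and 7.04 with Ito cells and 4.77, 4.86 and 6.30 in the control, higher by 1.92 ± 0.35 (adjusted p = 0.000461). Thbs1 read 19.06, 19.05 and 19.03 and 13.59, 18.05 and 18.32, higher by 2.63 ± 0.72 (adjusted p = 0.0139). Fn1 read 16.85, 16.93 and 16.80 with Ito cells, within the range of the control, and passed with a difference of 2.62 ± 0.79 (adjusted p = 0.0255). Fn1 did not pass when any 1 of the Ito arrays was left out (adjusted p = 0.0588, 0.0662 and 0.059), and had a difference of 3.95 without replicate 3 of the control. Without replicate 1 of the control, the count was 10 genes in place of 17 (2 higher and 8 lower), the difference before subtraction was 0.86 for Thbs1 (adjusted p = 0.357) and 0.09 for Fn1 (adjusted p = 0.897), and Tpm2, Col3a1, Col4a1, Col6a2 and Postn did not pass either.

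Ctgf read 6.45, 6.47 and 6.08 with Ito cells, all under the lowest control array, and was lower by 3.02 ± 0.58 (adjusted p = 6.2e-05). Bgn read 6.14, 6.88 and 6.25 and was lower by 2.65 ± 0.54 (adjusted p = 0.000132). Sparc read 11.70, 11.83 and 11.87 and was lower by 1.92 ± 0.49 (adjusted p = 0.00127). In each of these the 3 arrays with Ito cells lay close together and the control arrays were spread, with replicate 1 the highest. Lox read 4.55, 5.07 and 4.69 with Ito cells and 7.62, 6.11 and 5.89 in the control, lower by 1.53 ± 0.33 (adjusted p = 0.000149). Without replicate 1 of the control the difference was -1.09 for Sparc (adjusted p = 0.0441) and -0.99 for Lox (adjusted p = 0.0069). Col1a2 was at least 1.91-fold lower, with 3.79, 4.36 and 4.51 under background on all 3 arrays. In the control it was not above background on all 3 arrays either.

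In monocytic macrophages at 1 day, limma called 0 of the 35 genes higher with Ito cells (2 at an unadjusted p under 0.05) and 2 lower, where 1.91% of all genes were higher and 13.6% lower. Col1a1, the other chain of collagen I, read 4.64, 5.07 and 4.01 with Ito cells and 6.04, 6.34 and 5.58 in the control, a difference of -1.13 ± 0.42 (adjusted p = 0.0185). Col5a1 was under background on all arrays of both groups, at 2.58, 2.71 and 2.77 and 3.21, 3.27 and 3.14. Quantile normalization gave 2 higher and 0 lower (912 and 847 of all genes), and median centring 2 and 0 (681 and 753). Neither fall kept its call under both other scalings. Leaving out any array changed the count to 1 or 0, and Col1a1 did not pass without replicate 1 or 2 of the control or replicate 3 of the Ito cultures (adjusted p = 0.0572, 0.0868 and 0.115). Sparc, Bgn, Col1a2 and Tagln stayed at or near background with Ito cells, with Sparc at 5.20, 5.06 and 5.37.

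At 3 days with Ito cells, 3 of the 35 genes were higher than in the MCSF control of Kupffer cells and 14 were lower, where 14.5% of all genes were higher and 12.3% lower. The median difference was -0.19, against 0.11 over all genes. Matricellular genes made up 4 of the falls, contractile genes 3, and fibrillar collagens and stellate cell markers 2 each. The counts were 2 higher and 15 lower (all genes 2550 and 2567) with quantile normalization and 2 and 15 (all genes 2058 and 2988) with median centring.

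Olfml3 read 5.60, 5.22 and 5.02 with Ito cells against 13.25, 13.40 and 13.75 in the control, lower by 8.30 ± 0.35 (adjusted p = 1.87e-21). Fn1 read 10.87, 9.96 and 10.54 against 15.47, 15.43 and 15.58, lower by 5.15 ± 0.79 (adjusted p = 2.37e-06). Col1a1 read 6.73, 6.03 and 5.74 against 8.46, 9.28 and 9.74, lower by 3.11 ± 0.42 (adjusted p = 2.48e-07). No array with Ito cells reached a control array in these 3 genes. Lox read 7.48, 7.06 and 6.81 against 9.92, 9.94 and 10.08 and was lower by 2.97 ± 0.33 (adjusted p = 5.27e-09). Among the others, Tagln was lower by 2.89 ± 0.40, Cnn1 at least 3.75-fold, Col1a2 by 2.66 ± 0.36, Sparc by 2.12 ± 0.49, Bgn by 1.92 ± 0.54 and Acta2 by 1.31 ± 0.35. Bgn did not pass without replicate 3 of the control (adjusted p = 0.0508).

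Higher with Ito cells at 3 days were Vim, Lum and Col6a2. Vim read 18.35, 18.24 and 18.24 with Ito cells against 15.71, 15.05 and 14.92 in the control, higher by 2.94 ± 0.27 (adjusted p = 6.65e-12). Lum, the proteoglycan lumican, read 5.42, 5.49 and 4.97 against 3.89, 4.18 and 4.32, and passed (adjusted p = 0.00127), but it was under background on all control arrays and on 1 array with Ito cells, so no fold is given. Col6a2, a chain of the beaded-filament collagen VI, read 4.57, 4.71 and 4.29 against 3.93, 3.92 and 3.77, under background on all 6 arrays. In the same comparison 5 of 12 fibroblast, mesothelium and smooth muscle markers and 8 of 20 endothelial markers were higher with Ito cells.

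In monocytic macrophages at 3 days, 2 of the 35 genes were higher with Ito cells and 13 lower, where 5.8% of all genes were higher and 6.66% lower. The median difference was -0.56, against 0.04 over all genes, and the counts were 2 and 13 under both other scalings. Sparc read 5.86, 6.94 and 5.77 with Ito cells against 14.72, 15.02 and 12.86 in the control, lower by 8.05 ± 0.49 (adjusted p = 3.26e-15). Bgn read 5.85, 6.01 and 5.75 and was lower by 6.39 ± 0.54 (adjusted p = 2.79e-11). Col1a2 read 5.65, 5.14 and 5.28 and was lower by 4.15 ± 0.36 (adjusted p = 6.15e-11). No array with Ito cells reached a control array in these 3 matrix genes. Acta2 read 7.40, 8.13 and 7.32 and was lower by 3.69 ± 0.35 (adjusted p = 4.51e-10). Col1a1 was at least 7.48-fold lower and Des at least 1.92-fold, with Dcn lower by 3.02 ± 0.48, Tagln by 3.01 ± 0.40, Thbs1 by 2.67 ± 0.72 and Lox by 1.88 ± 0.33. The Thbs1 groups overlapped, with replicate 3 of the control the lowest. Without that array the Thbs1 difference was -4.01, and without replicate 1 or 2 of the control or replicate 1 of the Ito cultures it did not pass (adjusted p = 0.148, 0.14 and 0.0834).

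The genes that were higher were Olfml3 and Vim. Olfml3 read 9.57, 9.06 and 9.47 with Ito cells, above all control arrays, and was higher by 1.82 ± 0.35 (adjusted p = 0.000184). Vim read 17.86, 18.71 and 17.84 with Ito cells against 16.33, 16.88 and 17.97 in the control and was higher by 1.04 ± 0.27 (adjusted p = 0.00521), though the groups overlapped. It did not pass without replicate 1 of the control or replicate 2 of the Ito cultures (adjusted p = 0.136 and 0.0762). Without replicate 3 of the control, 2 genes were higher and 14 lower.

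**Figure D4:**
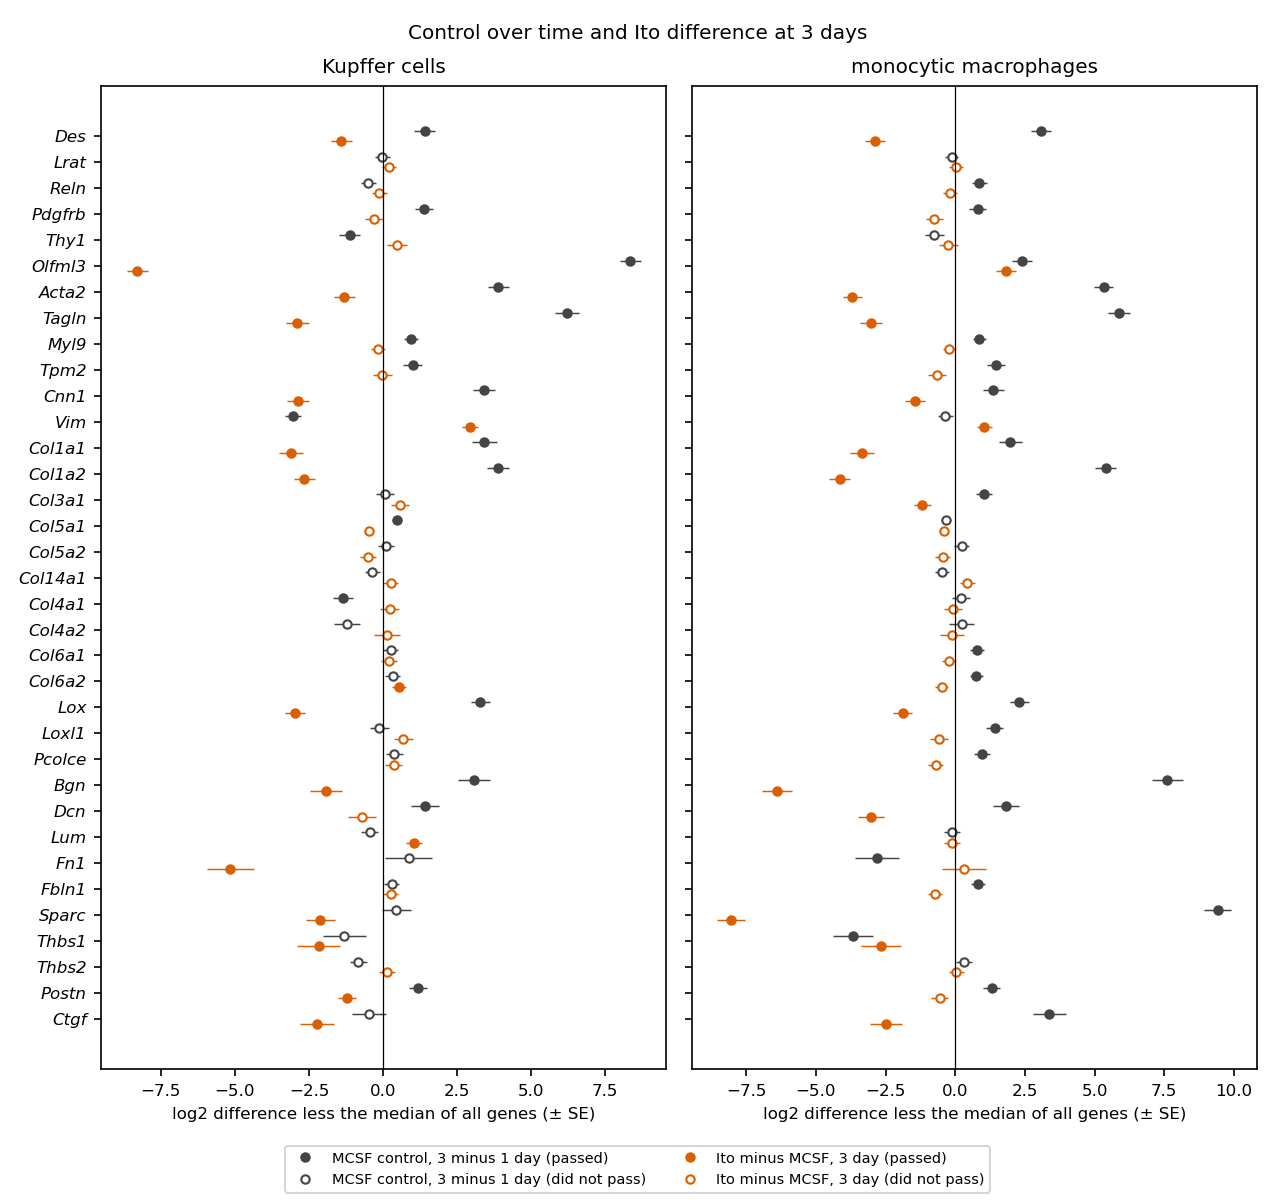
Log2 difference less the median of all genes (with SE) for each of the 35 genes, in grey for the MCSF control at 3 against 1 day and in orange for Ito cells against the MCSF control at 3 days, with filled points where the adjusted p was under 0.05. Both comparisons of a panel use the same control arrays of 3 days; Sparc in monocytic macrophages has the values 9.42 and -8.05.

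The MCSF control is shared by the comparisons over time and with each addition, so a high control at 3 days enters all of them, and their values are set side by side without a test of their likeness. In monocytic macrophages at 3 days, CD146 cells left 0 genes higher (0 at an unadjusted p under 0.05 in limma) and 10 lower, where 1.22% and 1.18% of all genes were. With quantile normalization the split was 0 higher and 10 lower (all genes 278 and 243), and after median centring 0 and 10 (all genes 180 and 304). HGF left 1 higher and 17 lower, against 7.56% and 5.46%. Sparc read 10.26, 10.36 and 10.49 with CD146 cells, lower than the control by 3.89 ± 0.49, and 8.20, 8.13 and 8.46 with HGF, lower by 5.92 ± 0.49. Acta2 read 7.54, 8.08 and 7.92 and 7.18, 7.21 and 6.85, lower by 3.49 ± 0.35 and 4.17 ± 0.35. Neither addition reached the control in these genes. Thbs1 read 7.41, 8.41 and 7.49 with HGF, lower by 7.04 ± 0.72, and 14.69, 14.83 and 14.86 with CD146 cells, which did not pass (adjusted p = 0.994). The Thbs1 control arrays read 16.22, 16.12 and 12.14, and without replicate 3 the difference with CD146 cells was -1.44 (adjusted p = 0.377).

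In Kupffer cells at 3 days, CD146 cells left 7 genes higher and 7 lower, where 14% and 12.4% of all genes were, and HGF left 13 higher and 4 lower, against 14.5% and 13.1%. Quantile normalization gave 10 higher and 4 lower (2775 and 2736 of all genes), and median centring 12 and 5 (2349 and 3287), for HGF. Olfml3 read 6.84, 6.96 and 6.35 with CD146 cells and 6.59, 5.31 and 6.25 with HGF, lower than the control by 6.76 ± 0.35 and 7.42 ± 0.35. Vim read 18.64, 18.61 and 18.57 and 18.73, 18.20 and 18.48, higher by 3.37 ± 0.27 and 3.25 ± 0.27. Fn1 read 12.74, 13.45 and 13.16 and 12.87, 11.42 and 12.83, lower by 2.39 ± 0.79 and 3.12 ± 0.79. The groups of these 3 genes stood apart from the control, though Fn1 with CD146 cells did not pass without replicate 3 of the control or replicate 1 of the CD146 cultures (adjusted p = 0.0568 and 0.0772). Acta2, lower with Ito cells, read 14.35, 13.37 and 13.96 with HGF and was higher by 1.50 ± 0.35 (adjusted p = 0.000785), as were Ctgf by 2.33 ± 0.58 and Tpm2 by 2.06 ± 0.32. Ctgf did not pass without replicate 1 of the control (1.38, adjusted p = 0.0641) or replicate 1 of the HGF cultures (1.41, adjusted p = 0.0592). Dcn read 12.60, 11.78 and 12.12 with CD146 cells, its highest group of the series, higher by 2.48 ± 0.48 (adjusted p = 6.07e-05). HGF and CD146 cells at 3 days are also the cultures with the highest fibroblast and mesothelium list.

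At 1 day, CD146 cells left 1 gene higher and 5 lower in Kupffer cells, where 1.32% and 2.46% of all genes were, and HGF left 2 and 4, against 4.13% and 13.4%. The counts were 2 higher and 4 lower (all genes 1164 and 1158) with quantile normalization and 3 and 4 (all genes 2007 and 1233) with median centring, for HGF. In monocytic macrophages CD146 cells left 1 gene higher and 0 lower in limma (1 at an unadjusted p under 0.05), against 1% and 1.33%. HGF left 0 higher (0 at an unadjusted p under 0.05) and 8 lower, against 0.22% and 37.2%, and all 8 were under background in both groups. With quantile normalization the split was 0 higher and 0 lower (all genes 223 and 212), and after median centring 0 and 1 (all genes 357 and 276). The gene that CD146 cells raised in both cell types at 1 day was Olfml3, which read 7.73, 7.70 and 8.61 in Kupffer cells, higher by 3.02 ± 0.35 (adjusted p = 7.22e-08), and 9.67, 9.72 and 10.01 in monocytic macrophages, higher by 4.80 ± 0.35 (adjusted p = 9.49e-13). Sparc read 10.10, 10.14 and 10.22 in Kupffer cells with CD146 cells, lower than the control by 3.84 ± 0.49.

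The comparison of Ito with CD146 cells sets one added cell against another and does not use the MCSF control. In Kupffer cells at 1 day 4 genes were higher with Ito cells and 8 lower, where 6.6% and 20.8% of all genes were. Quantile normalization gave 5 higher and 4 lower (1894 and 1973 of all genes), and median centring 5 and 4 (2716 and 1253). Dcn read 6.60, 6.51 and 6.14 with CD146 cells and was higher with Ito cells by 4.60 ± 0.48 (adjusted p = 6.86e-09). Thbs1 read 14.50, 14.75 and 15.52 with CD146 cells and was higher with Ito cells by 4.39 ± 0.72 (adjusted p = 4.26e-05). Thy1 was at least 3.35-fold higher with Ito cells (adjusted p = 1.18e-06), and CD146 cultures read 4.03, 4.90 and 4.69. These 3 genes, with Ito cultures entering both, are those that were higher with Ito cells than with MCSF and than with CD146 cells at 1 day in Kupffer cells. Sparc was higher by 1.92 ± 0.49. Lower with Ito cells were Olfml3, at least 8.96-fold, Lox by 1.73 ± 0.33 (6.74, 6.87 and 6.71 with CD146 cells), Vim by 1.19 ± 0.27 (17.38, 17.60 and 17.70 against 19.05, 18.95 and 19.07), and Col1a2 at least 1.63-fold (5.23, 6.15 and 5.29 with CD146 cells). Col1a2 was not above background on all 3 arrays with CD146 cells, and it did not pass without replicate 2 of the CD146 cultures (adjusted p = 0.0596).

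At 3 days in Kupffer cells, limma called 0 genes higher with Ito than with CD146 cells (1 at an unadjusted p under 0.05) and 10 lower, where 1.54% and 1.54% of all genes were, so that the share of the 35 genes that was lower exceeded that of all genes. The median difference was -0.45, against 0.08. Dcn read 9.10, 9.21 and 8.92 with Ito cells, lower by 3.17 ± 0.48 (adjusted p = 2.67e-05). Sparc read 12.13, 12.73 and 12.78 against 15.54, 15.22 and 15.46, lower by 2.94 ± 0.49 (adjusted p = 0.000139). Bgn read 11.04, 10.72 and 10.44 against 12.88, 13.27 and 12.73, lower by 2.30 ± 0.54 (adjusted p = 0.0104). The arrays with Ito cells lay under all arrays with CD146 cells in these 3 genes. Lox read 9.29, 8.80 and 9.14 with CD146 cells and was lower with Ito cells by 2.03 ± 0.33 (adjusted p = 0.000131), followed by Col1a1, Des, Col1a2, Olfml3, Acta2 and Col6a2. Without replicate 3 of the Ito cultures, 5 genes were lower in place of 10, and Olfml3, Acta2, Col1a1, Col6a2 and Bgn did not pass (adjusted p = 0.0808, 0.14, 0.0599, 0.248 and 0.0688). Bgn did not pass without replicate 2 of the CD146 cultures either (adjusted p = 0.0693).

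In monocytic macrophages at 1 day 1 gene was higher with Ito than with CD146 cells and 5 were lower, where 3% and 16.8% of all genes were. The counts were 4 higher and 3 lower (all genes 1220 and 1185) with quantile normalization and 3 and 1 (all genes 1094 and 939) with median centring. Thbs1 read 19.08, 19.07 and 19.05 with Ito cells and 16.95, 16.56 and 16.84 with CD146 cells, a difference of 2.59 ± 0.72 (adjusted p = 0.0221). It passed without replicate 1 of the CD146 cultures but not when any other of the 6 arrays was left out (adjusted p from 0.0535 to 0.0708). The count of 6 genes went to 3 without replicate 2 of the Ito cultures or replicate 1 or 2 of the CD146 cultures and to 2 without replicate 3 of the Ito cultures. Olfml3 read 4.07, 4.39 and 4.78 with Ito cells and was lower by 5.08 ± 0.35 (adjusted p = 8.7e-15). Vim, at 17.25, 17.25 and 17.11 against 18.33, 18.10 and 17.94, was lower by 0.61 ± 0.27 and did not pass under both other scalings, nor without replicate 3 of the Ito cultures or replicate 1 of the CD146 cultures (adjusted p = 0.0526 and 0.0686). The remaining 3 (Col14a1 at 3.44, 3.32 and 4.07 against 4.64, 4.59 and 4.81, Lox at 4.48, 4.11 and 4.34 against 5.38, 5.49 and 5.23, and Postn) were under background on all arrays of both groups.

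At 3 days in monocytic macrophages 2 genes were higher with Ito than with CD146 cells and 4 lower, where 5.82% and 5.49% of all genes were. Olfml3 was higher by 2.74 ± 0.35 (adjusted p = 4.26e-07), with CD146 cultures at 6.88, 6.45 and 6.72. Vim was higher by 1.20 ± 0.27 (adjusted p = 0.00294), with CD146 cultures at 16.73, 17.09 and 17.16. Sparc was lower by 4.12 ± 0.49 (adjusted p = 7.15e-08), Bgn, at 9.41, 9.53 and 9.95 with CD146 cells, by 3.70 ± 0.54 (adjusted p = 2.31e-06), Col1a2, at 6.45, 6.74 and 6.96, by 1.30 ± 0.36 (adjusted p = 0.00886), and Thbs1, at 11.31, 12.87 and 12.41 with Ito cells, by 2.54 ± 0.72 (adjusted p = 0.0121). None of these groups overlapped, but Vim did not pass without replicate 2 of the Ito cultures (adjusted p = 0.056), Col1a2 without replicate 3 of the CD146 cultures (adjusted p = 0.0519) or Thbs1 without replicate 1 of the Ito cultures (adjusted p = 0.0939).

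**Figure D5:**
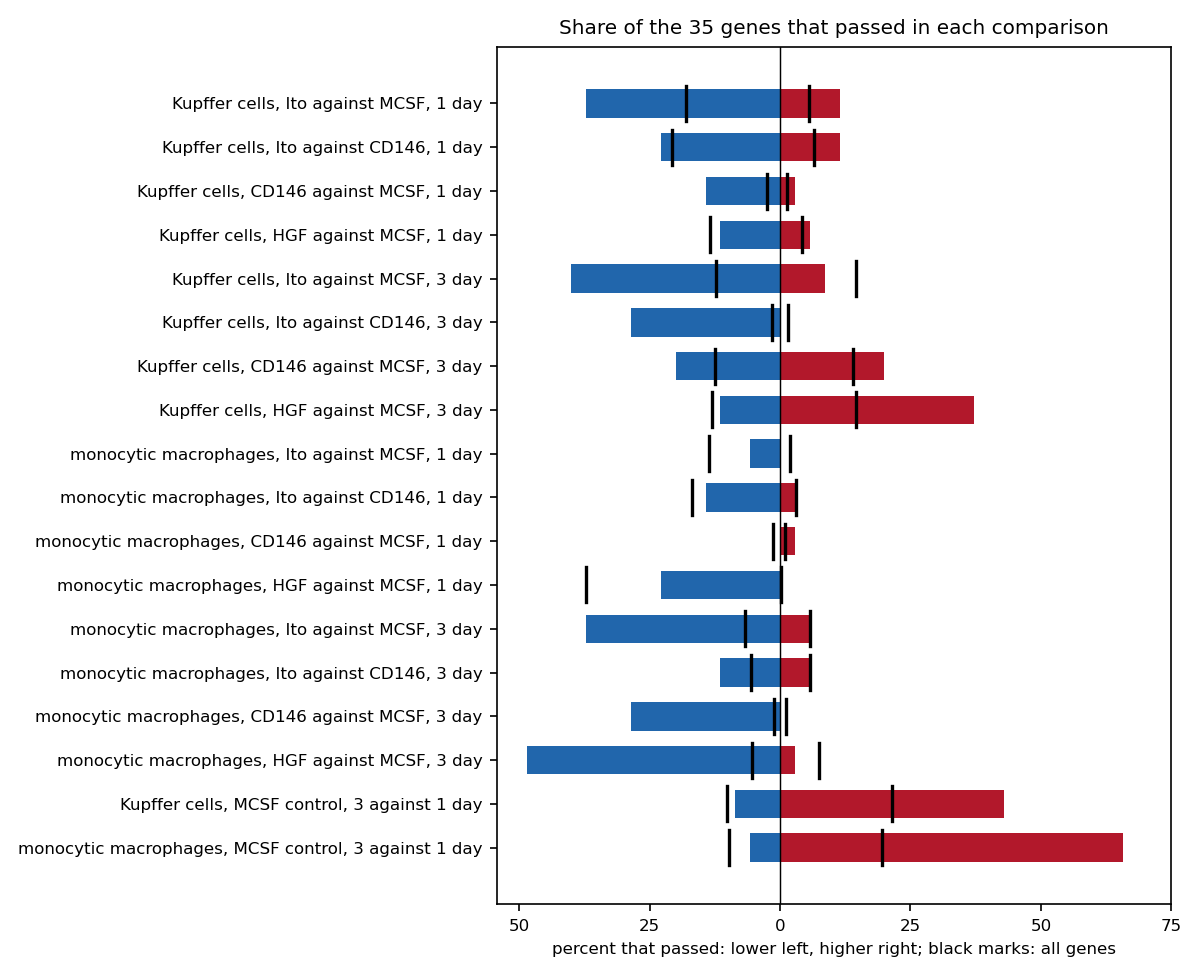
Percent of the 35 genes that were lower (left, blue) and higher (right, red) at an adjusted p under 0.05 in each comparison, with black marks for the percent of all 19505 genes. The Ito comparisons at 3 days lie mostly to the left and the MCSF controls over time mostly to the right.

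Kupffer cultures with Ito cells changed over time by 22 rises and 4 falls, where 41.8% of all genes rose and 6.82% fell. With quantile normalization the split was 12 higher and 5 lower (all genes 2895 and 2714), and after median centring 11 and 5 (all genes 2229 and 3676). The median difference was 0.84, against 0.51 over all genes. Bgn rose by 3.80 ± 0.54, Tagln at least 7.42-fold, Col1a2 at least 5.36-fold and Acta2 by 2.22 ± 0.35, so contractile and matrix genes rose in these cultures too. The bounds of Tagln and Col1a2 are before subtraction of the all-gene median of 0.51 (log2). Fn1 fell by 6.92 ± 0.79 and Thbs1 by 6.13 ± 0.72, and Dcn and Thy1, which had been higher with Ito cells at 1 day, fell by 2.18 ± 0.48 and 2.59 ± 0.35.

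Monocytic cultures with Ito cells showed 13 rises and 2 falls, where 35.3% and 6.24% of all genes rose and fell. Quantile normalization gave 7 higher and 7 lower (2518 and 2540 of all genes), and median centring 4 and 9 (1851 and 3647). Olfml3 rose by 4.51 ± 0.35, Tagln at least 2.45-fold and Bgn at least 2.01-fold. Both bounds are before subtraction of the all-gene median, which was 0.44 (log2) here. Sparc, which rose at least 425-fold in the MCSF control, read 5.20, 5.06 and 5.37 and then 5.86, 6.94 and 5.77 with Ito cells and did not pass (adjusted p = 0.104). Thbs1 fell by 7.31 ± 0.72.

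The difference between the Ito response of Kupffer cells and that of monocytic macrophages was tested as an interaction in limma. At 1 day 2 genes had a higher and 5 a lower response in Kupffer cells, where 1.85% and 1.9% of all genes had. The counts were 2 higher and 3 lower (all genes 364 and 422) with quantile normalization and 2 and 3 (all genes 767 and 261) with median centring. The 7 genes were 1 without replicate 1 of the Kupffer control and 11 without its replicate 3, and 4 without replicate 1 of the monocytic control, replicate 1 or 3 of the Kupffer Ito cultures or replicate 3 of the monocytic Ito cultures. In 6 of the 7, all but Dcn, at least 1 of the monocytic groups was under background on all arrays, so the size of the difference is not measured. At 3 days the counts were 10 and 2, where 4.58% and 4.16% of all genes passed. With quantile normalization the split was 7 higher and 2 lower (all genes 893 and 929), and after median centring 6 and 2 (all genes 696 and 958). Olfml3 had the widest gap among the 35 genes at 3 days, -10.05 ± 0.49 before subtraction, being lower with Ito cells in Kupffer cultures and higher in monocytic ones. Sparc had a difference of 6.0 ± 0.69, being lower in both and by more in monocytic macrophages.

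For 25 of the 35 genes the group with the highest mean was above background on all 3 arrays. That group had received Ito cells for 3 of them, Thbs1 (monocytic, 1 day), Thy1 (Kupffer, 1 day) and Col3a1 (Kupffer, 3 days). It was Kupffer cells with HGF at 3 days for 10 genes, Kupffer cells with CD146 cells at 3 days for 4 and the Kupffer MCSF control at 3 days for 4. Genes not shown by array above are given by their range. Myl9 ranged in its group means from 4.67 (Kupffer, HGF, 1 day) to 7.54 (Kupffer, HGF, 3 days), and Tpm2 from 4.33 to 8.76, also highest there. Loxl1, an elastin-crosslinking oxidase, ranged from 2.59 to 6.63, and Pcolce, an enhancer of procollagen processing, from 2.59 to 5.95. Among the collagens, Col3a1 ranged from 3.11 to 5.89, Col4a2 from 3.47 to 6.36 and Col6a1 from 3.44 to 5.40. Col5a2 ranged from 3.12 to 4.59 and passed in none of the comparisons. Fbln1 (fibulin 1) ranged from 3.13 to 4.63, Thbs2 (thrombospondin 2) from 2.47 to 4.70 and Postn (periostin) from 2.73 to 5.47. Thbs2 and Postn were above background on all 3 arrays of no group.

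The number of genes above background on all 3 arrays of a group ran from 6, in the monocytic groups of 1 day, to 21, in Kupffer cells with HGF at 3 days.

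Other genes of the matrix, on a list of 44 that are not in the gene set, are counted here beside the share of all genes. In the Kupffer control over time 20 rose and 7 fell (45.5% and 15.9%, against 21.5% and 10.2% of all genes), among them the procollagen protease Bmp1 with 6.19 ± 0.24 and the latent TGF-beta-binding protein Ltbp1 with 5.45 ± 0.43. In the monocytic control 17 rose and 6 fell (38.6% and 13.6%, against 19.5% and 9.82%), among them the collagen chaperone Serpinh1 with 3.69 ± 0.40 and Igfbp7 with 5.15 ± 0.41, while the proteoglycan Vcan fell by 6.33. With Ito cells at 3 days 8 of the 44 were higher and 14 lower in Kupffer cells (18.2% and 31.8%, against 14.5% and 12.3%), with Ltbp1 at -6.85 ± 0.43 and Bmp1 at -5.64 ± 0.24. In monocytic macrophages 4 were higher and 12 lower (9.09% and 27.3%, against 5.8% and 6.66%), with Igfbp7 at -4.36 ± 0.41 and Serpinh1 at -3.30 ± 0.40. Of 20 other contractile genes, 7 rose and 3 fell in the monocytic control over time (35% and 15%, against 19.5% and 9.82% of all genes). In the Kupffer control 2 rose and 3 fell (10% and 15%, against 21.5% and 10.2%), so the share that rose lay under that of all genes. With Ito cells at 3 days 4 were higher and 1 lower in Kupffer cells (20% and 5%, against 14.5% and 12.3%), the latter being the actin-binding caldesmon Cald1 (-2.60 ± 0.40).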

How the data were processed

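RNA of the 48 cultures was hybridised to Affymetrix arrays, 1 per culture, in 16 groups of 3. The deposited values are log2 signals per probe set, made with the Transcriptome Analysis Console by RMA, per the submitters' processing notes; the genome build, and whether all arrays were normalized together, are not given in the sources used here. Of 28846 probe sets, 6640 were controls, 5222 of them negative controls, and 19572 had a gene symbol. The probe set with the highest mean stood for the 55 genes with several, which left 19505 genes. Each of the 35 genes had 1 probe set. The number of arrays limits the precision.

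The model was limma's (version 3.58.1, in R 4.3.3, with data.table at version 1.17.8), with 1 mean per group over all 48 arrays, a two-sided moderated test, and Benjamini-Hochberg adjustment of p across the 19505 genes, separately for each of 24 contrasts, with a threshold of 0.05. On data simulated for monocytic macrophages with Ito cells at 3 days, with all 19505 genes, 42 of 100 genes changed 2-fold and 95 of 100 changed 4-fold were recovered, and 7 unchanged genes were called. No 2 arrays were identical. Arrays with equal replicate numbers deviated from their group means with a correlation of -0.0103 on average, against 0.0055 for different numbers, so the numbers were not used to pair arrays.

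Genes are shown on every array where they were among up to 4 with the largest rise and 4 with the largest fall, among those that passed, for Ito against MCSF, Ito against CD146, the MCSF controls over time and both controls against each other. Of the other lists up to 3 genes each way may be named. Members, lists, contrasts and alternatives were chosen with earlier results of these data known. The alternatives were quantile normalization, median centring, a fit without the dimmest 25 percent, a variance model with trend and robust settings, the mean of all probe sets, a replicate block, a fit on the compared arrays alone, and fits without each array or without 3 arrays that stood apart. Promoter windows are from RefSeq on GRCm38.p6. Python 3.11.15 with matplotlib 3.10.9 drew the figures.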

Additional observations from a re-analysis of the deposited data

Results flagged for a closer look

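The response to Ito cells differed between Kupffer cells and monocytic macrophages in 7 of the 35 genes at 1 day and 12 at 3 days, by the interaction test of limma. The values below are the Kupffer response minus the monocytic response (log2, before subtraction of the all-gene median, with SE). At 1 day the response of Kupffer cells was higher for Dcn by 2.82 ± 0.68 (adjusted p = 0.011) and for Thy1 by 1.86 ± 0.49 (adjusted p = 0.022). The difference was -3.51 ± 0.82 for Ctgf (adjusted p = 0.00827), -2.72 ± 0.69 for Sparc (adjusted p = 0.0174), -2.07 ± 0.51 for Col1a2 (adjusted p = 0.0139), -1.65 ± 0.47 for Lox (adjusted p = 0.0391) and -1.57 ± 0.47 for Col4a1 (adjusted p = 0.0486). Of these 7 genes only Dcn was above background on all arrays of the 4 groups. In monocytic macrophages Ctgf, Thy1, Col1a2, Lox and Col4a1 were under background on all arrays of both groups and Sparc on those of the control, so these 6 differences carry no measured monocytic response and their sizes are not measured. Without replicate 1 of the Kupffer control at 1 day, 1 gene passed in place of 7, Dcn, and Ctgf had an adjusted p of 0.0502 and Sparc of 0.104.

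At 3 days the difference was 6.0 ± 0.69 for Sparc (adjusted p = 2.1e-08) and 4.54 ± 0.77 for Bgn (adjusted p = 3.44e-05), both lower with Ito cells in each cell type and by more in monocytic macrophages. It was -10.05 ± 0.49 for Olfml3 (adjusted p = 1.2e-18), which was lower with Ito cells in Kupffer cells and higher in monocytic macrophages. It was -5.40 ± 1.12 for Fn1 (adjusted p = 0.000675). Acta2 had 2.46 ± 0.50 (adjusted p = 0.000457), Dcn 2.39 ± 0.68 (adjusted p = 0.0174), Vim 1.98 ± 0.39 (adjusted p = 0.000307) and Col3a1 1.84 ± 0.42 (adjusted p = 0.00216). The remaining differences were 1.57 ± 0.51 for Col1a2 (adjusted p = 0.0462), 1.55 ± 0.50 for Des (adjusted p = 0.0452), 1.25 ± 0.40 for Lum (adjusted p = 0.0392) and 1.10 ± 0.34 for Col6a2 (adjusted p = 0.0326), and none of these 4 passed under both other scalings. Col3a1 was above background on all arrays only with Ito cells on Kupffer cells and under it on all arrays of the other 3 groups, Des was under it in both groups with Ito cells, Lum in 3 of the 4 groups and Col6a2 in all 4, so the sizes of these differences are not measured. Dcn did not pass without replicate 1 or 2 of the monocytic control (adjusted p = 0.0749 and 0.116) or replicate 1 of the Kupffer control (adjusted p = 0.069).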

How the results depend on the processing

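Counts below are of the 35 genes past the threshold in limma. After quantile normalization the count was 17 for Kupffer Ito cultures over time (26 otherwise), 2 for CD146 cells (1) and 0 for HGF (8; at an unadjusted p under 0.05, 4 higher and 3 lower) on monocytic macrophages at 1 day. After median centring it was 16 for Kupffer Ito cultures over time and 1 for HGF on monocytic macrophages at 1 day, and Col5a1, at background, reversed to -0.12 in Kupffer Ito cultures over time. Without the dimmest 25 percent of genes it was 1 for Ito cells on monocytic macrophages at 1 day (2). Without the 3 arrays that stood apart it was 11 for Ito cells on Kupffer cells at 1 day (17), 5 and 4 for Ito and CD146 cells on monocytic macrophages at 1 day, and 4 for the difference of Ito responses at 1 day (7). A fit of only the arrays compared, with fewer arrays behind the spread, gave 6 for Ito, 2 for CD146 and 0 for HGF on Kupffer cells at 1 day (the last with 4 lower at an unadjusted p under 0.05), 5, 5 and 13 for the same additions on monocytic macrophages, 14 for monocytic Ito against CD146 cells at 1 day (6), 16 for Kupffer Ito against CD146 cells at 3 days (10), 8 and 5 for the controls of both cell types at 1 and 3 days (15 and 9) and 3 for the difference of Ito responses at 1 day. Except where named, the cause was not tested. Leaving out each array in turn gave 10 to 19 for Ito cells on Kupffer cells at 1 day, 1 to 11 for the difference of Ito responses at 1 day, 0 to 1 for Ito cells and 5 to 7 for HGF on monocytic macrophages at 1 day, 2 to 5 for monocytic Ito against CD146 cells at 1 day, and 5 to 8 for Kupffer Ito against CD146 cells at 3 days. With the replicate number as a block, the count for Ito against CD146 cells on Kupffer cells was 11 at 1 day and 9 at 3 days, 289 of 292 calls of single genes were kept, and Thbs2 (adjusted p = 0.0553), Col6a2 (0.0533) and Des (0.0542) were not; the block changed no other call. The trend and robust variance model and the mean of all probe sets kept all 292 calls. Genes at background have no measurable level, so where a gene passed between groups that were both at background, the size of its difference is not measured.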
